A study of Mus musculus with 18 samples.

Results

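The 10 genes described here belong to the fibroblast growth factor (FGF) pathway: the ligands *Fgf3*, *Fgf4*, *Fgf5*, *Fgf8* and *Fgf15*, the receptors *Fgfr1* and *Fgfr2*, and the feedback inhibitors *Spry2*, *Spry4* and *Dusp6*. They were taken by name from the deposited tables. Of the 10 genes, 9 were among the 20310 genes of the table of differentiation stages, and all 10 were among the 20495 genes of the table of fibroblasts. *Fgfr1* was not analysed in the stages here.

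RNA-seq was used to ask how gene expression changes on the way from mouse embryonic stem cells (ESCs) to blood cells, and in fibroblasts given blood transcription factors. All samples were of strain 129. The stage cells came from a single ESC line with a *Brachyury* GFP reporter, grown on feeder fibroblasts and differentiated through embryoid bodies. Mesoderm (MES) was sorted as Brachyury-GFP+ and Flk1-, the hemangioblast (HB) as Brachyury-GFP+ and Flk1+, hematopoietic progenitors (HP) as CD41+ and macrophages (MAC) as CD11b+. Hemogenic endothelium was not analysed here, so the step from HB to HP spans it. Each of the 5 stages had 2 replicate samples, which the deposited value combines, so no error between replicates can be given. Expression is in FPKM, fragments per unit of transcript length and of sequencing depth, and the number of reads behind a value is unknown.

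The other 8 libraries were mouse embryonic fibroblasts (MEFs), prepared from embryonic day 14.5 embryos. They were untreated (uFIB) or given Scl and Lmo2 (SL), Scl, Fli1, Gata2 and Lmo2 (SFGL), or Fli1, Gata2 and Lmo2 (FGL), and taken at day 12 and day 21. Scl is another name for *Tal1*. In the study, MEFs were wild-type or carried rtTA and a TAL1 cassette induced by doxycycline; the other factors came on lentiviral vectors, and the labels do not say which MEFs gave a library. There was 1 library per condition and day. The library labelled FGL had 7.04 FPKM of *Tal1* at day 12, where uFIB had 0.0414, and 3.35 FPKM of *Fli1* at day 21, where uFIB had 3.02. Both values run against that label. *Fli1* was also no higher in SFGL than in SL, at 41.2 against 46.7 FPKM at day 12 and 27.8 against 34.4 at day 21, although the labels give Fli1 to SFGL and not to SL; *Gata2* stood at 110 against 68.8 and at 132 against 62.6.

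FGFs are secreted proteins that bind tyrosine kinase receptors together with heparan sulfate and signal through Ras and MAP kinases of the ERK family. ERK signalling switches on its own inhibitors, among them the Sprouty proteins and the phosphatase DUSP6, so that their transcripts are often read as a sign of active FGF signalling. In the early mouse embryo FGF4 takes part in leaving naive pluripotency, FGF5 marks the epiblast, and FGF8 is needed for cells to leave the primitive streak.

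Promoter windows are shown for 3 ligands, because each was highest at a different stage. Each window runs from 250 bases before to 50 bases after the annotated start, on the strand of the gene, from RefSeq on GRCm38.p6, the build of the expression tables. Windows were read for *Fgf3*, *Fgf4*, *Fgf5*, *Fgfr2*, *Spry2* and *Dusp6*, and not for the other members. Capitals mark matches to the TATA box TATAAA, the T-box core TCACACC, the ETS core CCGGAA, the GATA-type core AGATAA or the CCAAT box on either strand, and a match on the other strand shows as the reverse complement. *Fgf4* is at chr7:144861136-144861435 (+), *Fgf5* at chr5:98253934-98254233 (+) and *Fgf3* at chr7:144838362-144838661 (+).
Fgf4: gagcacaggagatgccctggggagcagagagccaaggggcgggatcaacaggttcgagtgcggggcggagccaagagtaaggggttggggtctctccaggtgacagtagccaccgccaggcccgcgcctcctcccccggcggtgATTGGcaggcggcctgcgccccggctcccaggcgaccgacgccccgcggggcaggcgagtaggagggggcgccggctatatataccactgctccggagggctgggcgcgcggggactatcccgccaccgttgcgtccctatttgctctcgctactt
Fgf5: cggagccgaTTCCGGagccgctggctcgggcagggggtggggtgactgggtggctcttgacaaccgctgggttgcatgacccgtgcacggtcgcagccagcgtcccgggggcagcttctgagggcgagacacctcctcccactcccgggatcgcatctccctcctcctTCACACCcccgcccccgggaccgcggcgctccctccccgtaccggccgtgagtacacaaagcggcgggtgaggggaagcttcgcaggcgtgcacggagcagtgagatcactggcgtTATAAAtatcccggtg
Fgf3: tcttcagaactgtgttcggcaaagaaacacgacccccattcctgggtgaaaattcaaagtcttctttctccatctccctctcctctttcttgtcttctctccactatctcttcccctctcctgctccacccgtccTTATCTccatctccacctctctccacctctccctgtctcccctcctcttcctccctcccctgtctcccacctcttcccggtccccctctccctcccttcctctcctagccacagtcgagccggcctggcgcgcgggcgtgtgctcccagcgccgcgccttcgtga

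None of the 5 motifs overlapped another in these windows. *Fgf5* held CCGGAA on the other strand at -241, TCACACC at -82 and TATAAA at 35, counted from the start. This TATAAA thus lies after the start and not before it. Only exact letters were searched, so that the stretch TATATATA before the start of *Fgf4* was not marked. *Fgf3* held AGATAA on the other strand at -115, and *Fgf4* held CCAAT on the other strand at -106. Of the other windows, that of *Dusp6* held CCAAT at -46 on the other strand, that of *Spry2* held CCGGAA at 34 and that of *Fgfr2* held none of the 5. Over all 32851 windows, the TATA box was in 13.6%, the T-box core in 3.98%, the ETS core in 14.9%, the GATA-type core in 11.2% and the CCAAT box in 37.4%. A match says only that these letters are present.

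The stage columns were checked against marker genes. The 5 ESC markers summed to 638 FPKM in ESC and the 5 primitive streak and mesoderm markers to 284 in MES. The 4 hemangioblast markers summed to 201 in HB, the 4 progenitor markers to 142 in HP and the 5 macrophage markers to 1170 in MAC. The sum of each list was highest at its own stage. The ESC markers still summed to 285 FPKM in MES, as much as the mesoderm list there, with *Pou5f1* at 220, and to 61.5 in HB. Single genes could peak elsewhere: *Eomes* and *Mixl1* were higher in HB than in MES, and *Tal1* was higher in HP than in HB. The 7 fibroblast markers summed to between 3.92 and 23.4 FPKM in the other stages but to 61.0 in HP. There *Postn* was at 23.3 FPKM, *Col1a2* at 17.6, *Col1a1* at 13.1 and *Col3a1* at 6.13, each at its highest. *Pdgfra*, *Thy1* and *Twist2* went the other way, from 16.7, 0.931 and 1.17 FPKM in HB to 0.494, 0.00523 and 0.517 in HP. The 6 visceral endoderm markers summed to no more than 1.39 FPKM at any stage.

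The most abundant of the 5 ligands was a different one at each of the first 3 stages: *Fgf4* in ESC, *Fgf8* in MES and *Fgf3* in HB. Summed over the 5 ligands, FPKM came to 33.9 (ESC), 106 (MES), 81.7 (HB), 5.40 (HP) and 0.0246 (MAC). *Fgf4* gave 77.6% of the sum in ESC, *Fgf8* 70.7% in MES, and *Fgf3* 76.1% in HB and 94.1% in HP. The sum was thus highest in MES and close to nothing in MAC, where 3 of the 5 ligands were listed at 0. In these bulk samples, fewer cells that make a transcript and less of it per cell cannot be told apart.

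**Figure D1:**
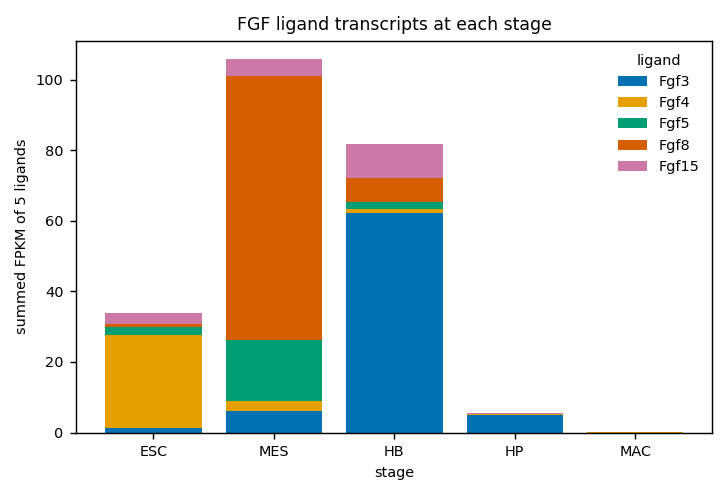
Stacked bars of the FPKM of 5 FGF ligands at each stage, 1 pooled value per stage. *Fgf4* fills most of the bar in ESC (26.3 of 33.9), *Fgf8* in MES (74.8 of 106) and *Fgf3* in HB (62.2 of 81.7), and almost nothing is seen in MAC.

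*Fgf4*, the ligand of the inner cell mass, lies on chromosome 7 at 144861386 to 144865243 on the plus strand. From ESC through MES, HB and HP to MAC its level ran 26.3, 2.89, 1.26, 0.0368 and 0.0186 FPKM. The level was lower at every stage than at the one before, by 9.10 times from ESC to MES and by 2.30 times from MES to HB.

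*Fgf5*, the epiblast ligand, lies on chromosome 5 at 98254184 to 98277030 on the plus strand. Its values were 2.42 FPKM (ESC), 17.2 (MES), 1.81 (HB), 0.0231 (HP) and 0.0060 (MAC). MES was alone above 3 FPKM, 7.11 times the level of ESC and 9.50 times that of HB.

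*Fgf8*, a ligand of the primitive streak, lies on chromosome 19 at 45736798 to 45742884 on the minus strand. Its level was 0.659 FPKM at the ESC stage, 74.8 in mesoderm, 6.76 in the hemangioblast and 0.0299 in progenitors, and MAC was listed at 0. Like *Fgf5* it peaked in MES, but its second highest stage was HB and not ESC. MES stood 11.1 times above HB.

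*Fgf3*, which is made in the streak and later in the inner ear and hindbrain, lies on chromosome 7 at 144838612 to 144843348 on the plus strand. From ESC through MES and HB to HP its level ran 1.29, 6.06, 62.2 and 5.08 FPKM, and MAC was listed at 0. HB was 10.3 times above MES and 12.2 times above HP. *Fgf3* was the one member ligand with more than 1 FPKM in HP. The fibroblast markers had their highest sum in that column, though not each of them was highest there. The part of these markers in this value was not tested.

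*Fgf15*, the mouse counterpart of human FGF19, lies on chromosome 7 at 144896532 to 144900951 on the plus strand. From ESC through MES and HB to HP its level ran 3.20, 4.78, 9.74 and 0.232 FPKM, and MAC was listed at 0. It followed the same order as *Fgf3* among ESC, MES and HB over a narrower range, since HB was 2.04 times above MES.

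*Fgf3*, *Fgf4* and *Fgf15* are neighbours. The gap from the end of *Fgf3* to the start of *Fgf4* is 18.0 kb, that from *Fgf4* to *Fgf15* is 31.3 kb, and the 3 genes span 62.3 kb on the same strand. Within this span *Fgf4* was highest in ESC, and the genes on both of its sides were highest in HB. Next to *Fgf15* lies *Oraov1*, with 3.57 FPKM (ESC), 2.82 (MES), 3.39 (HB), 3.28 (HP) and 8.84 (MAC). The next gene is *Ccnd1*, the gene of cyclin D1, with 43.3 FPKM (ESC), 46.6 (MES), 77.8 (HB), 4.37 (HP) and 38.8 (MAC). Unlike the 3 ligands, both of these neighbours were expressed in MAC. They were chosen as the other genes of the stage table within 200 kb.

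**Figure D2:**
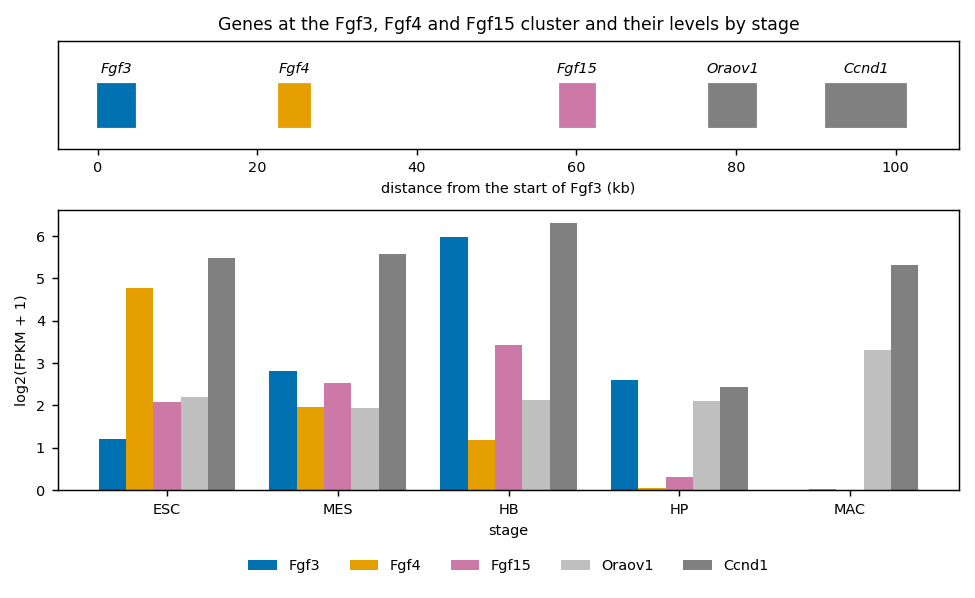
Top, gene bodies by distance from the start of *Fgf3* in kb; bottom, log2(FPKM + 1) of each gene by stage, 1 pooled value per bar. *Fgf4* is tallest of the 3 ligands in ESC and *Fgf3* in HB, while *Oraov1* and *Ccnd1* alone have visible bars in MAC.

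The receptor *Fgfr2* lies on chromosome 7 at 130162451 to 130266808 on the minus strand. The 5 stages, in the order ESC, MES, HB, HP, MAC, gave 1.45, 2.38, 4.95, 0.642 and 0.0240 FPKM. HB was highest, 2.08 times above MES, and all stages were under 5 FPKM. Of the other receptors, *Fgfrl1*, which lacks a kinase domain, had 2.68 FPKM (ESC), 3.97 (MES), 5.36 (HB), 1.29 (HP) and 2.36 (MAC).

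*Spry2*, which damps receptor signalling to Ras, lies on chromosome 14 at 105891947 to 105896819 on the minus strand. From ESC through MES, HB and HP to MAC its level ran 45.0, 28.8, 20.4, 3.43 and 3.37 FPKM. The level was 5.95 times lower in HP than in HB, whereas neighbouring stages before HB differed by under 2-fold.

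*Spry4*, a second Sprouty gene, had 26.3 FPKM (ESC), 6.72 (MES), 6.36 (HB), 0.152 (HP) and 0.0333 (MAC). ESC was 3.91 times above MES, MES and HB were within 1.06-fold, and HP was 41.9 times below HB. Unlike *Spry2*, *Spry4* was under 1 FPKM in both blood stages.

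*Dusp6*, the cytoplasmic phosphatase that inactivates ERK, lies on chromosome 10 at 99263231 to 99267489 on the plus strand. Its values were 52.9 FPKM (ESC), 125 (MES), 50.7 (HB), 4.66 (HP) and 91.4 (MAC). It was lowest in HP, and its highest stages, MES and MAC, differed by 1.37-fold. No other member was above 4 FPKM in MAC.

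**Figure D3:**
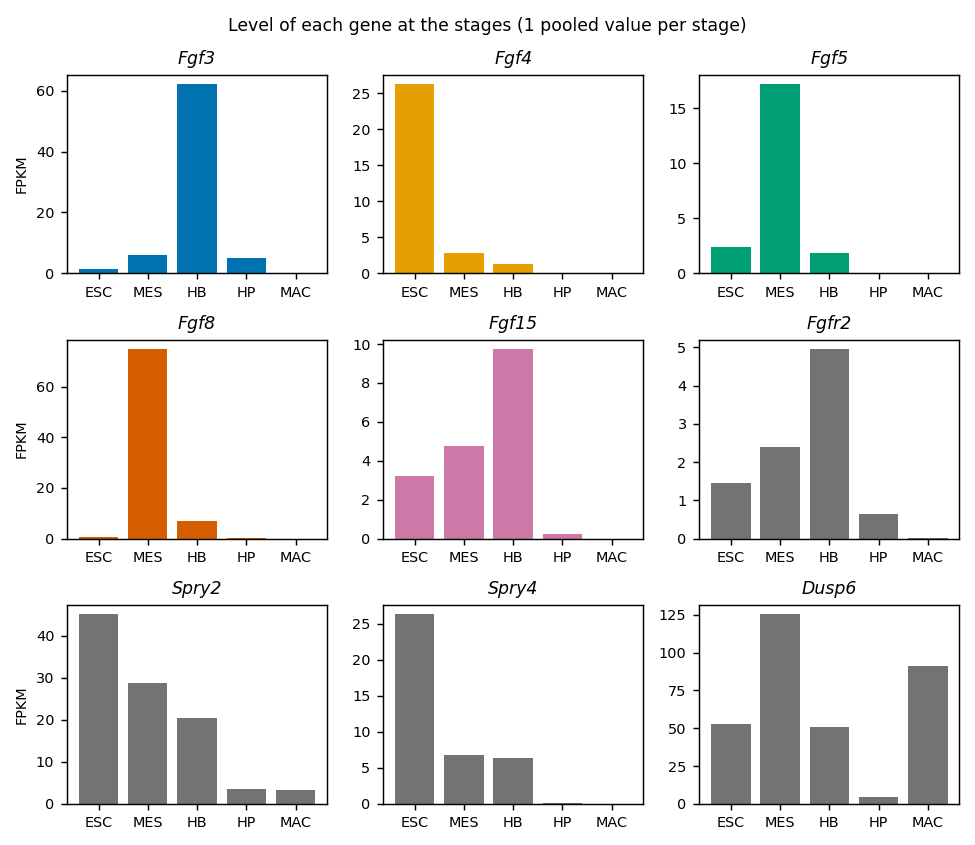
FPKM of 9 members at the 5 stages, 1 panel per gene with its own axis from 0, 1 pooled value per bar. *Fgf4*, *Spry2* and *Spry4* are highest in ESC, *Fgf5*, *Fgf8* and *Dusp6* in MES and *Fgf3*, *Fgf15* and *Fgfr2* in HB; *Dusp6* alone has a tall bar in MAC.

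Successive stages were then compared with a limit of size: a gene was counted where its FPKM differed at least 2-fold and reached 1 FPKM in the higher stage. This limit is not a test. From ESC to MES, 4 of the 9 members rose (*Fgf3*, *Fgf5*, *Fgf8* and *Dusp6*) and 2 fell (*Fgf4* and *Spry4*), where 11.3% of all genes that reached 1 FPKM rose and 12.0% fell. The median difference over the 9 members was 0.46 on log2(FPKM + 1), against 0.01 over all genes with a mean of 1 FPKM or more. The difference was 2.41 for *Fgf5*, 1.62 for *Fgf3* and -2.81 for *Fgf4* on this scale.

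From MES to HB, 3 members rose (*Fgf3*, *Fgf15* and *Fgfr2*) and 4 fell (*Fgf4*, *Fgf5*, *Fgf8* and *Dusp6*), against 4.05% and 6.30% of all genes. *Fgf15* and *Fgfr2* were close to the limit: with the columns scaled to a common upper quartile 1 member rose and 4 fell, and with a pseudocount of 1 in place of 0.001 it was 1 and 3. The median was -0.48 over the members and 0.13 over all genes. *Fgf3* differed by 3.16 and *Fgf8* by -3.29 on log2(FPKM + 1), so that the ligand of the mesoderm stage and the ligand of the hemangioblast moved by about the same size in opposite directions.

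From HB to HP, all 9 members fell and none rose, where 12.8% of all genes fell and 12.3% rose. The median was -2.68 over the members and -0.13 over all genes, and the 9 differences lay between -3.38 for *Fgf3* and -1.12 for *Fgf4*. All 3 roles shared this direction: 5 ligands, 1 receptor and 3 feedback genes, the receptor being *Fgfr2* alone. Among the other receptors, *Fgfrl1* fell from 5.36 to 1.29 FPKM. *Fgfr3* was higher in HP, at 2.48 FPKM against 1.39 in HB, a difference under the limit. It was chosen after its values were seen.

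From HP to MAC, 3 members reached 1 FPKM in either stage. *Dusp6* rose 19.6-fold, *Fgf3* fell from 5.08 FPKM to a listed 0 and *Spry2* stayed within 1.02-fold. Of all genes, 38.0% rose and 16.9% fell, and the median was -0.04 over the 9 members and 0.46 over all genes. Scaling the columns to a common upper quartile moved this median by -0.63, and the difference of *Dusp6*, 4.03 as deposited and 3.57 relative to the median, became 3.33. At the other 3 steps the shift was no more than 0.14 in size.

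Other genes of the pathway were read from 6 lists with 77 genes, 75 of them in the stage table: other ligands, other receptors and klothos, the Ras-MAP kinase cascade, other feedback inhibitors, ERK-responsive transcription factors, and heparan sulfate carriers and enzymes. Entering MES, 10 of them rose and 9 fell; entering HB, 5 rose and 6 fell. Entering HP, 3 rose while 20 fell, and entering MAC, 20 rose while 11 fell. With a common upper quartile, 14 rose and 15 fell at that last step, so that its balance depended on the scaling. Over those that reached 1 FPKM at either stage, 53 to 57 of them, the median difference was -0.03, 0.13, -0.33 and 0.55 at the 4 steps, beside 0.00, 0.13, -0.13 and 0.45 over all such genes. These shares are read against the background given for each step above.

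Among 13 other ligands, 2 reached 5 FPKM at a stage. *Fgf17*, a close relative of *Fgf8*, had 8.93 FPKM (ESC), 6.29 (MES), 0.406 (HB), 0.0889 (HP) and 0.0157 (MAC). *Fgf10*, a ligand of mesenchyme, had 1.25 FPKM (ESC), 2.20 (MES), 20.1 (HB), 5.48 (HP) and 0.0173 (MAC). *Fgf10* thus had its highest value in HB and its second in HP, the order of *Fgf3* with MES and HP exchanged.

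Of 17 genes of the Ras-MAP kinase cascade, 1 fell and none rose from ESC to MES, against 12.0% and 11.3% of all genes. That gene was *Gab1*, an adaptor of receptor tyrosine kinases, which went from 57.1 to 9.91 FPKM. From MES to HB 2 of the 16 that reached 1 FPKM rose and none fell, against 4.05% and 6.30% of all genes. Of these 2, *Ksr1*, a scaffold of the cascade, went from 1.18 to 3.60 FPKM. From HB to HP 1 of 16 rose, *Gab1* from 6.33 to 13.1 FPKM, and 1 fell, against 12.3% and 12.8% of all genes. By share, the cascade thus had fewer calls than all genes from ESC to MES and from HB to HP, but not from MES to HB.

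Of 11 other feedback inhibitors, 9 reached 1 FPKM in HB or HP. From HB to HP 6 of these fell and none rose, where 12.8% of all genes fell and 12.3% rose. The 3 member feedback genes fell as well. *Dusp9*, an ERK phosphatase, went from 57.3 to 5.61 FPKM, and *Il17rd*, known as Sef, an inhibitor of FGF receptor signalling, from 16.8 to 1.07. From HP to MAC 5 of 9 other feedback inhibitors rose and 3 fell, against 38.0% and 16.9% of all genes.

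Of 9 ERK-responsive transcription factors, 7 reached 1 FPKM in ESC or MES. From ESC to MES 3 of these rose and 3 fell, against 11.3% and 12.0% of all genes. The immediate early genes *Fos* and *Ier2* went from 2.50 to 14.3 and from 13.9 to 46.5 FPKM, whereas *Egr1* and *Ier3*, also immediate early genes, fell from 4.596 to 1.82 and from 7.79 to 3.27. *Etv5*, an ETS factor downstream of FGF signals, fell from 22.2 to 8.55 FPKM between MES and HB. From HP to MAC 5 of 6 rose and none fell, against 38.0% and 16.9% of all genes. *Egr2* went from 0.336 to 33.1 FPKM at this step, beside the rise of *Dusp6*.

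Of 20 heparan sulfate carriers and enzymes, 6 rose and 4 fell from ESC to MES, against 11.3% and 12.0% of all genes. *Gpc3*, a glypican, went from 13.0 to 41.2 FPKM there, on to 109 in HB, and down to 10.1 in HP and 0.167 in MAC. *Gpc4* took another course, at 10.1 FPKM in ESC, 1.01 in MES, 0.998 in HB and 5.54 in HP. *Hs6st1*, a sulfotransferase, fell from 17.9 to 4.67 FPKM from ESC to MES, and *Sulf1*, a sulfatase, fell from 31.7 to 10.9 from MES to HB. In MAC the syndecans *Sdc3* and *Sdc4* stood at 55.6 and 42.2 FPKM, against 1.32 and 1.39 in HP, and *Hs6st2* fell from 5.31 to 0.0553. From MES to HB 2 of the 20 rose and 2 fell, against 4.05% and 6.30% of all genes. From HB to HP 1 rose and 9 fell, against 12.3% and 12.8%. From HP to MAC 5 of 19 rose and 5 fell, against 38.0% and 16.9%.

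For each ligand, the genes with the most similar course over the 5 stages were found by Euclidean distance of log2(FPKM + 1), among 7012 genes with at least 10 FPKM at a stage (7013 for *Fgf15*). Nearest to *Fgf4* were *Tcf15* at a distance of 0.467, *Esrrb* at 0.528 and *Tex19.1* at 0.598. Nearest to *Fgf5* were *Kcnj3* at 0.761, *Ppp4r4* at 0.766 and *Wnt8a* at 0.980. These 6 genes lay within 1 unit of their ligand.

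*Fgf8* had no gene so near: *Apln* lay at 1.89, *Cdx2* at 2.22 and *Wnt5b* at 2.25. Nearest to *Fgf15* were *Crym* at 0.871, *Car14* at 1.01 and *Ptprk* at 1.29. For *Fgf3*, which was added to this search after its values were seen, the nearest were *Etv2* at 1.22, *Cdh11* at 1.28 and *Aplnr* at 1.52. The courses rest on 5 points that share their column totals with all other genes.

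The MEFs held another set of ligands. *Fgf4* and *Fgf8*, the main ligands of ESC and MES, were listed at 0 in all 8 libraries. *Fgf5* was the one member ligand in uFIB. *Fgf3* and *Fgf15* were seen in SL and SFGL on both days and, at under 1 FPKM, in FGL at day 12, but not in FGL at day 21. Because the stage table and the MEF table were scaled apart, levels are set side by side only within each.

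*Fgf3* was listed at 0 in uFIB on both days. For SL, SFGL and FGL it gave 3.75, 7.74 and 0.792 FPKM at day 12 and 2.37, 6.13 and 0 at day 21. All 4 libraries with SL or SFGL were above the other 4, and SFGL was above SL on both days, by 2.07 times at day 12 and 2.59 times at day 21. The library labelled FGL that had *Fgf3* was the one with *Tal1*, at day 12; it also had the progenitor genes *Gata1* at 3.69 FPKM and *Itga2b* at 8.83, against 0 and 1.10 in uFIB. At day 21 *Gata1* was listed at 0 in FGL and *Itga2b* was at 0.805.

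*Fgf15* was likewise listed at 0 in uFIB on both days. For SL, SFGL and FGL it gave 1.44, 1.20 and 0.122 FPKM at day 12 and 0.618, 1.06 and 0 at day 21. The order of SL and SFGL was not the same on the 2 days. *Fgf4*, which lies between the 2 genes, was at 0 in the libraries where both were seen.

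The level of *Fgf5* at day 12 was 3.73 FPKM (uFIB), 0.456 (SL), 0.168 (SFGL) and 1.64 (FGL), and at day 21 it was 7.46, 1.06, 0.552 and 7.005 for the conditions in that order. SL was 8.18 and 7.06 times below uFIB on the 2 days and SFGL 22.3 and 13.5 times below it. *Fgf3* and *Fgf5* thus had opposite orders of condition within each day, with uFIB and FGL tied at 0 for *Fgf3* at day 21.

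*Fgfr1*, the main FGF receptor of mesenchymal cells, lies on chromosome 8 at 25513654 to 25575718 on the plus strand in GENCODE M21. Its level at day 12 was 82.6 FPKM (uFIB), 32.2 (SL), 23.4 (SFGL) and 75.5 (FGL), and at day 21 it was 61.4, 30.7, 18.7 and 63.7. On both days uFIB and FGL were alike, within 1.09-fold, and SL and SFGL were lower.

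The level of *Fgfr2* at day 12 was 10.4 FPKM (uFIB), 2.49 (SL), 2.33 (SFGL) and 9.84 (FGL), and at day 21 it was 9.95, 3.67, 2.39 and 9.21. As for *Fgfr1*, uFIB and FGL were above SL, and SL above SFGL, on both days. The receptors were lower where fibroblast genes were lower: the 8 fibroblast markers summed at day 12 to 7172 FPKM (uFIB), 2330 (SL), 1915 (SFGL) and 5853 (FGL), and at day 21 to 5493, 1149, 934 and 5348. The part of this in the levels of *Fgfr1*, *Fgfr2* and *Fgf5* was not tested.

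The level of *Spry2* at day 12 was 34.4 FPKM (uFIB), 17.4 (SL), 17.6 (SFGL) and 40.8 (FGL), and at day 21 it was 29.5, 21.5, 18.7 and 38.5. The level of *Spry4* at day 12 was 4.04 FPKM (uFIB), 2.20 (SL), 1.65 (SFGL) and 4.73 (FGL), and at day 21 it was 4.57, 2.17, 1.81 and 5.19. Both Sprouty genes were lower in SL and SFGL than in uFIB and FGL on each day, with differences from uFIB of 1.37 to 2.52 times.

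*Dusp6* went the other way at day 12. Its level at day 12 was 7.26 FPKM (uFIB), 28.7 (SL), 23.7 (SFGL) and 7.77 (FGL), and at day 21 it was 9.77, 13.6, 10.5 and 7.06. SL was 3.95 times above uFIB at day 12 and 1.39 times at day 21. The 5 macrophage markers, from cells in which *Dusp6* was high in the stages, summed to 33.2 FPKM in SL and 39.0 in SFGL at day 12, to 17.3 and 24.7 at day 21, and to no more than 5.44 in the libraries of uFIB and FGL. Most of this sum at day 12 was *Cd68*, at 26.2 FPKM in SL and 30.1 in SFGL, while *Csf1r* stood at 0.884 and 1.92. Of the 5 markers, 2 reached 1 FPKM in SL and 3 in SFGL on each day. The part of these markers in the level of *Dusp6* was not tested.

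**Figure D4:**
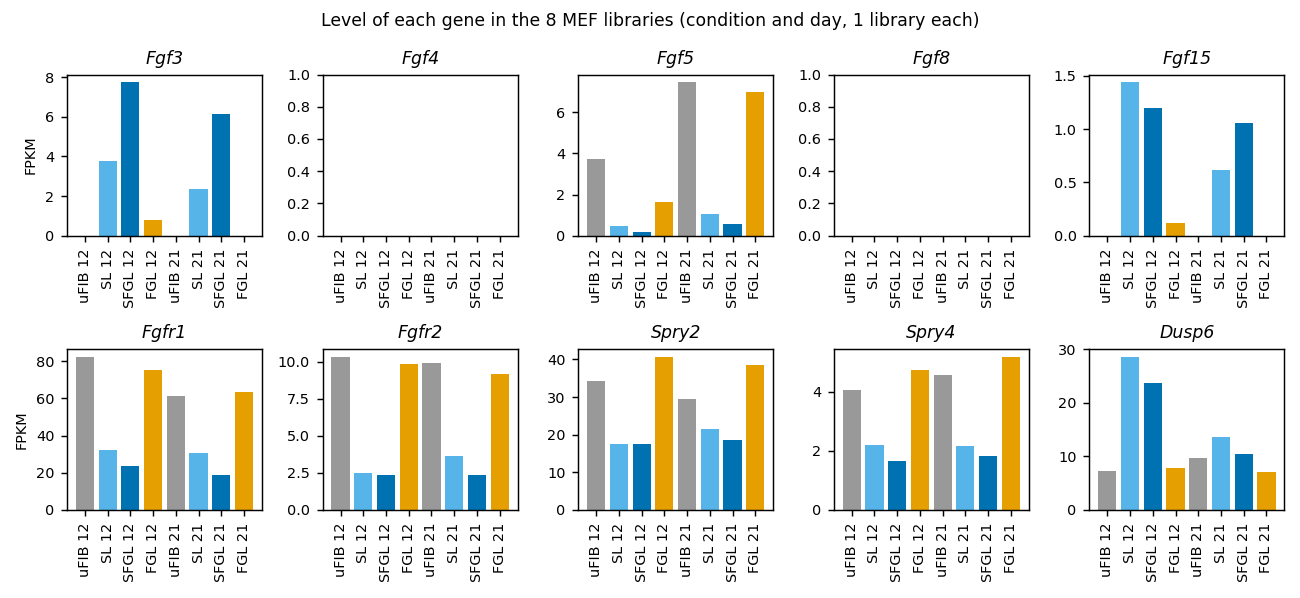
FPKM of the 10 members in the 8 MEF libraries, named by condition and day, 1 library per bar with its own axis from 0 for each gene; empty panels are genes listed at 0. *Fgf3* and *Fgf15* stand up in SL and SFGL, while *Fgf5*, *Fgfr1*, *Fgfr2*, *Spry2* and *Spry4* are lower there than in uFIB.

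SL, SFGL and FGL were each compared with uFIB of the same day by the same limit of size, so that the 3 comparisons of a day share 1 uFIB library. In SL at day 12, 3 members rose (*Fgf3*, *Fgf15* and *Dusp6*) and 3 fell (*Fgf5*, *Fgfr1* and *Fgfr2*), against 16.3% and 18.2% of all genes. The median over the 10 members was -0.33 on log2(FPKM + 1), beside -0.02 over all genes. It counts *Fgf4* and *Fgf8*, listed at 0 in both libraries; over the 8 members that reached 1 FPKM it was -0.80, beside -0.03 over all such genes. In SL at day 21, *Fgf3* rose and 4 members fell (*Fgf5*, *Fgfr1*, *Fgfr2* and *Spry4*), against 14.6% and 15.7% of all genes, and the median was -0.81 over the 7 members that reached 1 FPKM, beside -0.04. *Fgfr1* was just past the limit there, at a ratio of 0.499.

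In SFGL at day 12, *Fgf3*, *Fgf15* and *Dusp6* rose and 4 members fell (*Fgf5*, *Fgfr1*, *Fgfr2* and *Spry4*), against 16.9% and 21.5% of all genes, with medians of -0.93 over the 8 members that reached 1 FPKM and -0.03 over all such genes. In SFGL at day 21, *Fgf3* and *Fgf15* rose and the same 4 members fell, against 16.5% and 20.2% of all genes, with medians of -0.81 and -0.04 taken in the same way. *Fgf3* differed from uFIB by 3.13 at day 12 and 2.83 at day 21 on log2(FPKM + 1), a scale that understates the change of a gene listed at 0 in uFIB.

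In FGL at day 12, *Fgf5* fell, 2.28 times below uFIB, and no member rose, where 3.91% of all genes rose and 1.19% fell. At day 21 no member passed the limit, where 1.15% of all genes rose and 0.984% fell. Between SFGL and SL, 1 member passed the limit on each day: *Fgf3* was higher in SFGL both times, and no member was lower. Of all genes, 0.627% were higher and 2.07% lower at day 12, and 1.73% were higher and 1.96% lower at day 21.

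The libraries of both days were also fitted together by limma on log2(FPKM + 1), with terms for condition and day. This fit was added after the values were seen, takes the days as 2 samples of a condition and leaves 3 residual degrees of freedom over the 8 libraries. It covered the 11991 genes with a mean of 1 FPKM or more, 7 members among them: *Fgf4*, *Fgf8* and *Fgf15* were under that mean. For SL against uFIB, 6 members had an adjusted p under 0.05, *Fgf3* higher and *Fgf5*, *Fgfr1*, *Fgfr2*, *Spry2* and *Spry4* lower, where 25.4% of all genes were called higher and 27.1% lower. For SFGL the same 6 members were called in the same directions, against 28.0% and 30.8% of all genes.

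In that fit *Fgf3* differed from uFIB by 2.00 ± 0.23 (SE) in SL and by 2.98 ± 0.23 in SFGL, with limma adjusted p-values of 0.0019 and 0.000596. *Fgfr1* differed by -1.16 ± 0.11 and -1.72 ± 0.11, and *Fgfr2* by -1.47 ± 0.16 and -1.73 ± 0.16. *Dusp6* missed the threshold, at 1.14 ± 0.39 in SL (limma adjusted p = 0.0536) and 0.84 ± 0.39 in SFGL (limma adjusted p = 0.115). No member was called between FGL and uFIB or between SFGL and SL. *Fgf3* was higher in SFGL than in SL by 0.98 ± 0.23, on both of 2 days, with an unadjusted p of 0.00602 and an adjusted p of 0.42 by limma. Between SFGL and SL no gene was called by limma, with 400 genes higher and 657 lower at an unadjusted p under 0.05, and between FGL and uFIB 2 genes were called, both higher, or 0.0167%.

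**Figure D5:**
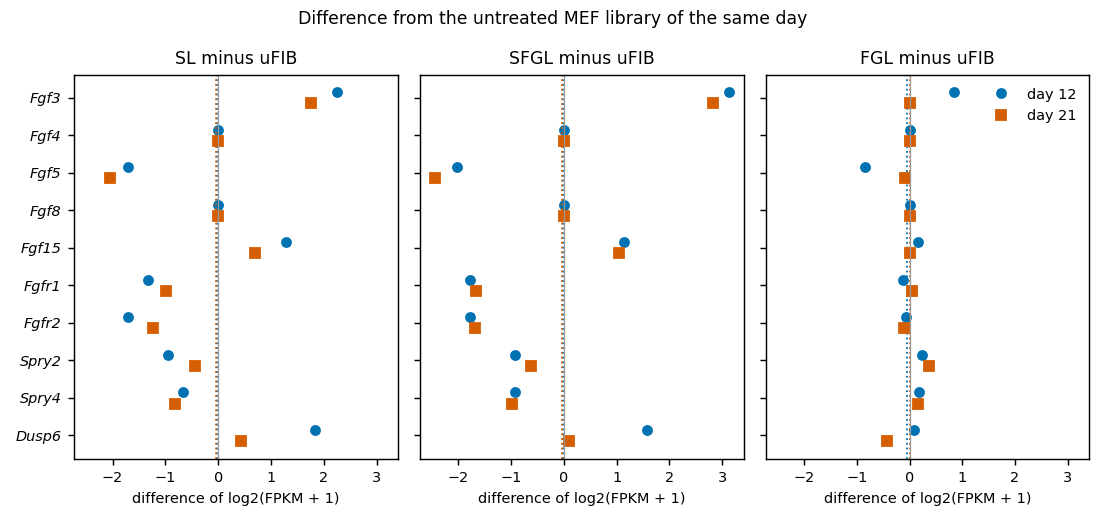
Difference of log2(FPKM + 1) between SL, SFGL or FGL and the uFIB library of the same day for each member, with circles for day 12 and squares for day 21; dotted lines give the median of all genes with a mean of 1 FPKM or more. *Fgf3* lies farthest to the right in SL and SFGL and *Fgf5* farthest to the left, and in FGL most points lie near 0.

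The other pathway genes, 76 of which were in the MEF table, moved mostly down in SL and SFGL. At day 12, of the 62 that reached 1 FPKM, 6 rose and 27 fell in SL and 5 rose and 27 fell in SFGL. Of all genes, 16.3% rose and 18.2% fell in SL and 16.9% and 21.5% in SFGL. At day 21, 4 of 61 rose and 17 fell in SL, against 14.6% and 15.7% of all genes. In SFGL at day 21, 7 of 63 rose and 23 fell, against 16.5% and 20.2%. In FGL none of the 62 at day 12 or the 61 at day 21 passed the limit. Of all genes, 3.91% rose and 1.19% fell there at day 12, and 1.15% and 0.984% at day 21. Of the 20 heparan sulfate carriers and enzymes, none rose in SL or SFGL on either day. In SL and SFGL, 13 and 15 fell at day 12, and 7 and 10 at day 21. *Gpc6* went from 32.6 FPKM in uFIB to 6.34 (SL) or 4.67 (SFGL) at day 12, *Sulf2* from 64.5 to 11.1 in SFGL at day 12, and *Gpc1* from 93.0 to 17.0 in SL and 9.46 in SFGL at day 21.

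The ligands that were abundant in untreated fibroblasts were no members. *Fgf7*, made by mesenchyme for epithelia, stood at 49.8 FPKM (uFIB), 13.1 (SL), 15.9 (SFGL) and 51.3 (FGL) at day 12, and at 47.5, 16.5, 20.5 and 58.4 at day 21. *Fgf2*, a growth factor of fibroblasts, stood at 19.6, 3.44, 1.58 and 14.3 FPKM at day 12 and at 15.5, 1.66, 3.03 and 15.1 at day 21, in the same order of conditions. *Fgf10* and *Fgf18* were at 7.81 and 5.84 FPKM in uFIB at day 12 and at 2.25 and 0.318 in SL. All 4 were lower in SL and SFGL than in uFIB on both days, as was the receptor *Fgfrl1*, at 42.7 FPKM in uFIB and 15.4 in SL at day 12.

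With the 13 other ligands included, the 5 member ligands made up 4.13% (uFIB), 21.8% (SL), 30.0% (SFGL) and 3.04% (FGL) of the FPKM of these 18 ligands at day 12. At day 21 the shares were 7.73%, 14.4%, 19.9% and 6.48%. The 5 member ligands themselves summed to 3.73, 5.64, 9.11 and 2.55 FPKM at day 12, in that order of conditions. At day 21 they summed to 7.46, 4.04, 7.74 and 7.005, so that the sum was not higher in SL than in uFIB on that day. The sum of the other ligands was 20.2 FPKM in SL and 21.3 in SFGL against 86.6 in uFIB and 81.5 in FGL at day 12. At day 21 it was 23.9 in SL and 31.2 in SFGL against 89.1 in uFIB and 101.1 in FGL. Of 4 other ligands that reached 1 FPKM in SFGL or SL at day 12, 1 was higher and 1 lower in SFGL, against 0.627% and 2.07% of all genes. *Fgf21* stood at 1.10 against 0.330 FPKM in SL, and *Fgf2* at 1.58 against 3.44. At day 21, 1 of 4 was higher and none lower, against 1.73% and 1.96%: *Fgf23* stood at 2.41 against 0.839. Each had the opposite order on the other day: *Fgf21* at 0 against 0.122 and *Fgf2* at 3.03 against 1.66 at day 21, and *Fgf23* at 0.0897 against 0.326 at day 12.

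Of the 9 ERK-responsive genes, 7 reached 1 FPKM at day 12, of which 2 rose and 1 fell in both SL and SFGL. Of all genes, 16.3% rose and 18.2% fell in SL and 16.9% and 21.5% in SFGL. At day 21, 3 of 8 rose and 1 fell in SL, against 14.6% and 15.7% of all genes. In SFGL at day 21, 4 of 9 rose and 2 fell, against 16.5% and 20.2%. *Fosl1*, *Ier2* and *Ier3* were higher in SL and SFGL, and *Fos* was lower. *Fos* stood at 11.7 FPKM (uFIB), 5.42 (SL) and 4.18 (SFGL) at day 12 and at 13.8, 4.90 and 3.17 at day 21. *Fosl1* at day 12 stood at 0.619 FPKM (uFIB), 4.10 (SL) and 4.04 (SFGL), and *Ier2* at 19.0, 46.9 and 47.7. *Ier3* stood at 16.5 FPKM for uFIB, 67.9 for SL and 68.98 for SFGL at day 21. The nuclear ERK phosphatase *Dusp5* at day 12 stood at 0.921 FPKM (uFIB), 3.90 (SL) and 4.62 (SFGL), in the same direction as *Dusp6*. Other feedback genes went the opposite way at day 12: *Spry1* from 30.6 FPKM in uFIB to 8.62 in SL, *Il17rd* from 3.48 to 0.666 and *Dusp4* from 9.55 to 4.15. Of the 11 other feedback inhibitors, 9 reached 1 FPKM at day 12. Of these 9, 2 rose and 3 fell in SL and 1 rose and 3 fell in SFGL, beside the shares of all genes given above for day 12. *Egr1*, a further ERK target, ranged from 36.1 to 52.5 FPKM over the 8 libraries and passed the limit in none of the MEF comparisons; it was chosen after its values were seen.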

How the data were processed

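RNA-seq values of 18 samples were used, 10 from the 5 stages and 8 from MEFs. All values are FPKM as the authors deposited them. For the stages, the authors depleted RNA of ribosomal RNA and aligned colour-space reads to mm10 (GRCm38) by SHRiMP. Reads with a single alignment were kept, Picard took out duplicates, and Cufflinks gave 1 value per stage and transcription start site (TSS) with the replicates combined. Removing duplicates limits the highest values. For the MEFs, the submitters' processing notes name TopHat and Cufflinks, and the table gives 1 value per gene and library. Tool versions are not given in the sources used here. 1 column of values in the stage table, for hemogenic endothelium, was not used because no sample here maps to it.

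TSS values were summed per gene, and each member had 1 TSS in the stage table. A gene was counted where FPKM + 0.001 differed at least 2-fold and the higher value reached 1 FPKM; differences were taken on log2(FPKM + 1), which understates changes of low genes. Medians of all genes cover those whose mean in the columns compared was 1 FPKM or more. With 1 pooled value per stage, no test between stages was possible. MEFs were compared within a day, with 1 library per condition, and both days were also fitted together by limma 3.58.1 in R 4.3.3 (condition and day as terms, trended variances, Benjamini-Hochberg adjustment over all genes with a mean of 1 FPKM or more); nothing says that the days were separate cultures, so its p-values measure the spread between these libraries. FPKM values hold no depth. In the MEFs, values under 0.3 FPKM put the relative depth of the other libraries at 0.586 to 1.57 times that of uFIB at day 12, but only 15.1% to 19.3% of low genes shared the step of 1 read, so that whole reads were not recovered and no count test was run. Whether a listed 0 is a failed estimate was not tested.

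The members, lists and motifs were chosen with earlier results of these data known. Named beside the members were, at each comparison, up to 3 other pathway genes with the largest increase and up to 3 with the largest decrease past the limit, other ligands or receptors with at least 5 FPKM in a column, the 3 genes nearest in profile to *Fgf4*, *Fgf5*, *Fgf8* and *Fgf15*, and marker genes as checks. Positions are those of the stage table counted from 1 on GRCm38: of 18702 genes with a RefSeq position, 9092 starts were equal when the table was read as counting from 0 and 642 otherwise. The counting and the limma fit were tested on simulated data. The software was Python 3.11.15 with NumPy 2.4.6, pandas 2.3.3 and matplotlib 3.10.9.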

Additional observations from a re-analysis of the deposited data

Results flagged for a closer look

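The difference of 4 genes had opposite signs on the 2 days under the same comparison of MEFs; with 1 library per condition and day, the difference between days was not tested. For FGL minus uFIB on log2(FPKM + 1), *Fgfr1* differed by -0.13 at day 12 and by 0.0521 at day 21, and *Dusp6* by 0.0858 at day 12 and by -0.42 at day 21. For SFGL minus SL, *Fgf15* differed by -0.15 at day 12 and by 0.35 at day 21, and *Spry2* by 0.0164 at day 12 and by -0.19 at day 21. None of the 8 values passed the limit of 2-fold.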

How the results depend on the processing

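Each count takes both directions together and is called moved beyond 1.5 times. At 4-fold, the members counted were 3 from MES to HB, 4 in SFGL at day 12, 2 in SL at day 21 and 0 in FGL at day 12 and in SFGL against SL on both days, and the other pathway genes were 4, 2, 11 and 20 at the 4 steps, 8 and 14 in SL and SFGL at day 12, 8 and 12 at day 21, and 0 in SFGL against SL on both days. With no minimum, the members were 7 from HP to MAC, 3 in FGL at day 12 and 2 in SFGL against SL at day 12, and the other genes were 31, 17 and 35 at the first 3 steps, 3 and 2 in FGL at day 12 and 21, and 8 and 7 in SFGL against SL. With a minimum of 5 FPKM, the members were 3 in SL and 4 in SFGL at day 12, 0 in FGL at day 12 and 3 in SL at day 21, and the other genes were 0 in SFGL against SL on both days. With a pseudocount of 1, the members were 4 from MES to HB, 3 in SL at day 21 and 0 in FGL and in SFGL against SL at day 12, and the other genes were 6 from MES to HB and 0 in SFGL against SL on both days. The pseudocount of 0.1, the common upper quartile and the mean of both uFIB libraries moved no count by over 1.5 times, but the common upper quartile moved the split by direction: from MES to HB 1 member rose and 4 fell in place of 3 and 4, and from HP to MAC 14 other pathway genes rose and 15 fell in place of 20 and 11. By limma with condition and day, added after the data were seen, 6 members were called in SL and in SFGL with all 8 libraries and without both FGL libraries, and 0 in FGL and between SFGL and SL. The stage with the highest level was the same for all 9 members under the common upper quartile and with the highest TSS alone, and no called difference changed sign under any alternative. By Pearson r in place of distance, 4 of the 15 nearest genes were found again. The cause of these shifts, beyond the limits themselves, was not tested.

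No paired analysis was possible for the stages because the deposited values combine the replicates, and no replicate was left out there for the same reason; in the MEFs, the limma fit takes the day as a term. Members under 1 FPKM, such as *Fgf4* in HP, are limited by unknown depth.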

Other observations

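The genes below were chosen after their values were seen. Of the 16 genes of the Ras-MAP kinase cascade that reached 1 FPKM in HP or MAC, 5 rose and 1 fell between these stages, against 38.0% and 16.9% of all genes, so that the cascade did not stand above the background. *Mapk3*, a kinase of the ERK family, stood at 12.0 FPKM in HP and 100 in MAC, and *Grb2*, an adaptor, at 11.8 and 57.4. The ETS factors *Etv4* and *Etv5*, often used with *Dusp6* and the Sprouty genes as readouts of FGF signals, stood at 8.97 and 22.2 FPKM in MES, below their ESC levels of 21.0 and 37.2, while *Dusp6* was higher in MES than in ESC.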
